A study of Homo sapiens with 17 samples.

Results

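The levels of 10 genes of the ETS family of transcription factors were followed through the passage of human endothelium into blood: ERG, FLI1, ETV2, ETS1, ETS2, ELK3, ETV6, ELF1, ELF4 and GABPA. They were chosen by symbol, with each symbol matched to its Ensembl identifier. All 10 were found among the 58302 gene identifiers of the count tables and among the 28285 identifiers of the tables of sorted cells. The other 18 genes of the family served as a comparison list.

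ETS proteins share a DNA-binding domain that recognises a GGAA core, and they differ in their partners and in whether they activate or repress. ERG and FLI1 hold genes of endothelial identity on, and in blood stem and progenitor cells they bind together with GATA2, RUNX1, TAL1, LYL1 and LMO2, a set known as the heptad. ETV2 acts briefly and early, when mesoderm takes an endothelial or blood fate. ETS1 and ETS2 are activated by MAPK signalling, ELK3 is a ternary complex factor that works with SRF, ETV6 is a repressor needed by blood progenitors, ELF1 and ELF4 are expressed across blood lineages, and GABPA, with its GABPB partner subunit, drives genes of the mitochondria.

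RNA was sequenced in 17 libraries of endothelium and of its blood progeny, all grown from H1, a line of human embryonic stem cells. The labels say that the endothelial cells were positive for GATA2, and the series design names a GATA2/eGFP reporter. Endothelial cells had been derived with vitamin C (Vc+) or without it (Vc-), and vitamin C is a cofactor of the dioxygenases that demethylate histones and DNA. Sorted cells gave 2 libraries with vitamin C and 2 without, with values read as TPM (levels per length of transcript that sum to nearly the same total in each library). Re-plated cells gave 10 libraries of read counts, 1 with and 1 without vitamin C at each of 0, 24, 36, 48 and 60 h. The labels call the libraries from 24 to 60 h mixtures of endothelial and blood cells. Vitamin C cultures further gave 1 library of suspended blood cells at 60 h, 1 of suspended blood cells at 96 h and, from 60 h, 1 of adherent cells, again labelled a mixture. No label names separate cultures, so p-values measure the spread between these libraries, which may be technical. In the course, with 1 library per condition and time, the vitamin C p-values measure how evenly a difference held over the times. They do not measure a spread between replicates.

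The 13 count libraries held 6214675 to 11058345 reads assigned to genes, and the 10 course libraries held at most 8794604. For the sorted cells the depth is unknown. Summed over 10 endothelial markers, the suspended cells had 1935 CPM (read counts scaled to the library total) at 60 h and 884 at 96 h, where ROBO4 had 0 counts, against 9675 in the adherent cells and 6799 to 9564 over the course. Most of the sum at 96 h is PECAM1, at 559 CPM against 439 CPM at 60 h. Of the 10 markers 8 were lower at 96 h than at 60 h and 2 higher, with CDH5 at 4.25 CPM against 194 CPM. Summed over 10 blood markers, the suspended cells had 2793 CPM at 60 h and 4052 at 96 h, against 1384 in the adherent cells. Most of the adherent sum is CD34, which went the other way, at 1113 CPM in adherent against 334 and 150 CPM in suspended cells. At 60 h 9 of the 10 were past 2-fold higher in suspended than in adherent cells and 1 lower, beside 14.3% and 15.7% of all genes. PTPRC, the pan-leukocyte gene, had 0 counts in the adherent cells and in 7 of the 10 course libraries. For the sorted libraries, titles and descriptions disagree on vitamin C in 2 of 4, and the titles were followed. All 4 held the endothelial markers at a summed 2355 to 4094 TPM over 9 genes, since PECAM1 is not listed there.

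On GRCh38 with GENCODE release 29, ERG lies on chromosome 21 from 38380027 to 38661780 on the minus strand, and ETS2 on the same chromosome from 38805307 to 38824955 on the plus strand. They are divergent neighbours, with 143526 bases between their starts. ETS1, on chromosome 11 from 128458761 to 128587558 on the minus strand, and FLI1, from 128686535 to 128813267 on the plus strand, form a second divergent pair, 98976 bases apart. GABPA is also on chromosome 21, from 25734570 to 25772460. ELK3 lies on chromosome 12 from 96194382 to 96269835, and ETV6 on the same chromosome from 11649854 to 11895402. ETV2 is a short gene on chromosome 19, from 35641745 to 35644871. ELF1 lies on chromosome 13 from 40932028 to 41061440, and ELF4 on chromosome X from 130064874 to 130110716. Exons of FLI1, ELK3, ELF1 and GABPA overlap exons of a gene on the opposite strand over at most 7.61% of their exonic length (413 bases, between GABPA and ATP5PF). The sources used here do not state whether counting used strand, so that share of their counts is uncertain.

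Promoter windows from RefSeq (GRCh38.p14, 250 bases before to 50 after a transcript start) were matched for 8 of the 10 genes, in 17 windows, and not for FLI1 and ETS1. The 4 windows printed belong to the pair of genes whose levels were lowest in suspended blood cells relative to adherent cells and had a window (ERG, ELK3), to the gene whose level was highest in them (ELF1), and to GABPA, whose level varied little. For a gene with several starts the window farthest upstream is printed. Capitals mark each GGAA core or its reverse complement TTCC. The windows are chr21:38660618-38660917, minus strand, for ERG, chr12:96194125-96194424, plus strand, for ELK3, chr13:41061337-41061636, minus strand, for ELF1, and chr21:25734722-25735021, plus strand, for GABPA.
ERG: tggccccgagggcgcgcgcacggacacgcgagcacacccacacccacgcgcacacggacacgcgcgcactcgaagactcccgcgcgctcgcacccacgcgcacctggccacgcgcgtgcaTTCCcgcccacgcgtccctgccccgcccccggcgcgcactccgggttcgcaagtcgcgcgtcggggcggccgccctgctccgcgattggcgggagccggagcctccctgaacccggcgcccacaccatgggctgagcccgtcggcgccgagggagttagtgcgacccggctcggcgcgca
ELK3: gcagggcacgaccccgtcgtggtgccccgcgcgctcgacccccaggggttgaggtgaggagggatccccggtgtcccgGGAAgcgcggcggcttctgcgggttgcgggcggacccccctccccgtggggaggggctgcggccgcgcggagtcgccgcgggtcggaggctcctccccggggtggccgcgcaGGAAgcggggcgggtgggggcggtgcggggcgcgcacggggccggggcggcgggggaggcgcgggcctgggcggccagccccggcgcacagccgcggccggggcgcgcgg
ELF1: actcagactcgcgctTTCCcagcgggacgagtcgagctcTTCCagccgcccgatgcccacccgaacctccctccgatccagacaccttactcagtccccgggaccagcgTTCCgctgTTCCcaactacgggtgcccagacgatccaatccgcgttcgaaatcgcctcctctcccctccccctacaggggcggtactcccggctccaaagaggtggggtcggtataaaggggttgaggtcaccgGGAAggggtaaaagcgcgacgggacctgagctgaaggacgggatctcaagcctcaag
GABPA: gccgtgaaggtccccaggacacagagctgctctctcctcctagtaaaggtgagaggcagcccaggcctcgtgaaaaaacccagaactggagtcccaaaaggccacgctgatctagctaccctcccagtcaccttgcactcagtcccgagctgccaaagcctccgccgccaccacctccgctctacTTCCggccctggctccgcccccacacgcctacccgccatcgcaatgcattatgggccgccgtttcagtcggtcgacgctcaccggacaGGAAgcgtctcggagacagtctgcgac
Counting both strands, the GGAA core was found 1 time in the printed ERG window, 2 times in that of ELK3, 5 times in that of ELF1 and 2 times in that of GABPA. Windows at other starts of the same genes differ, with 6, 2 and 2 matches for ERG, 8 for ELK3 and 0 and 3 for ELF1. Among all 35116 promoter windows of the same length, 95.5% held it, with a median of 3 matches. The longer motif CCGGAA, which contains the core, was found on either strand in 17.2% of all windows. Among the 17 windows of the ETS genes it was found in 1 window of ETV2 and in the GABPA window. GATAA, searched on both strands, was found in 22.7% of all windows and in 6 of the 17, none of them among the 4 printed. A match describes these letters and is not a binding site.

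In sorted endothelial cells the 10 genes spanned a wide range of TPM, a scale on which levels of different genes can be compared. FLI1 was highest, with 376 and 254 TPM in cells with vitamin C and 324 and 350 TPM without it. ETS1 had 359 and 166 TPM with vitamin C and 299 and 181 TPM without it. ERG had 148 and 165 TPM with vitamin C and 152 and 153 TPM without it. FLI1 exceeded ETS1, ETS1 exceeded ERG and ERG exceeded ELK3 in each of the 4 libraries. ELK3 had 119 and 100 TPM with vitamin C and 110 and 95.2 TPM without it, so its groups overlapped. The order of the next pair, ELF1 (50.1 ± 13.6 TPM, SD, n = 4) and ETS2 (45.2 ± 11.02 TPM), was not settled, since ELF1 was the higher in 2 libraries of 4. ELF4, ETV6 and GABPA followed at means of 31.1, 23.3 and 16.8 TPM. ETV2, the early factor, was lowest, with 2.33 and 11.9 TPM with vitamin C and 2.68 and 7.82 TPM without it.

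**Figure D1:**
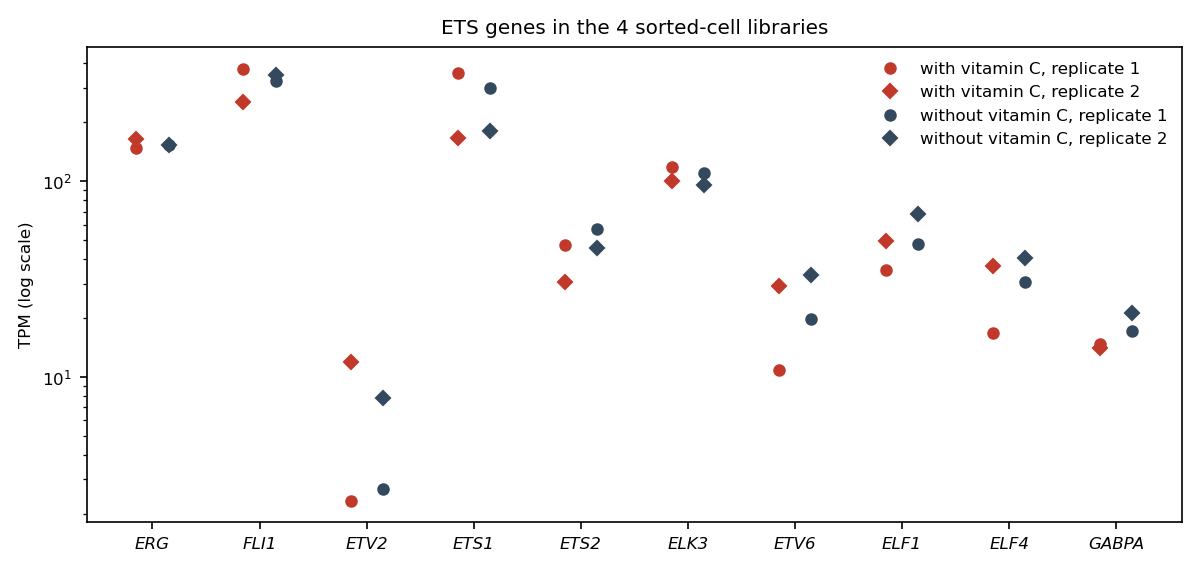
TPM of the 10 ETS genes in sorted endothelial cells on a log axis, 1 point per library, with circles for replicate 1 and diamonds for replicate 2 of each vitamin C condition. FLI1 at 254 to 376 TPM stands at the top and ETV2 at 2.33 to 11.9 TPM at the bottom, and points of the 2 conditions overlap for 9 of the 10 genes, GABPA being the exception, where groups did not overlap for 28.4% of all genes.

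In sorted cells no difference with vitamin C passed the test among the 10 genes. By limma on log2(TPM + 1), 0 of 10 passed, against 0% of the 14421 genes tested, and each of the 10 had an adjusted p of 0.999829. At an unadjusted p under 0.05 there were 0 of the 10 and 313 of all genes (2.17%). The largest of the differences were those of ETV6 (-0.50 ± 0.55, SE, with 10.8 and 29.2 TPM with vitamin C and 19.8 and 33.3 TPM without it), ELF4 (-0.48 ± 0.44) and ELF1 (-0.44 ± 0.32). ERG differed by 0.03 ± 0.23 and FLI1 by -0.12 ± 0.28. GABPA was at 14.7 and 14.1 TPM with vitamin C and 17.2 and 21.2 TPM without it (-0.38 ± 0.33). It was the 1 gene of 10 whose groups did not overlap, a share under that of all genes tested (28.4%). With 2 libraries a group, such standard errors leave wide room for differences in either direction.

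The replicate number separated some genes where the vitamin C condition did not. ETS1 was at 359 TPM with and 299 TPM without vitamin C in the libraries numbered 1, and at 166 TPM with and 181 TPM without it in those numbered 2. ETV2 went the other way, at 2.33 TPM with and 2.68 TPM without vitamin C in number 1 and at 11.9 TPM with and 7.82 TPM without it in number 2. ETV6, ELF1, ELF4 and ERG were also higher in number 2 within each condition, and ETS2 and ELK3 were lower. For ERG the step was small, at 148 and 152 TPM in number 1 against 165 and 153 TPM in number 2. FLI1 and GABPA were not separated by number. The share of all genes separated in this way was not counted. Under the descriptions, libraries of 1 number share a vitamin C condition. With the groups taken from the descriptions, 156 of all genes passed the limma test, and the differences with over without vitamin C became -0.91 for ETS1 and 1.04 for ETV6.

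Over the course, ETS1, FLI1, ELK3 and ERG were again the highest of the 10 genes, but in another order than in sorted cells. Counts were divided by exonic length and scaled to the same total for this comparison between genes. How the TPM of sorted cells were made is not given, so the 2 orders are not on the same measure. ETS1 was highest at 300.5 ± 109.5 (SD over 10 libraries of different times and conditions), above FLI1 in each library. FLI1 had 179.8 ± 17.3 and ELK3 161.3 ± 26.7, with FLI1 the higher in 9 of 10 libraries. ERG had 102.1 ± 16.9 and was under ELK3 in 10 of 10 libraries, whereas in sorted cells it was above ELK3 in 4 of 4. ELF1 had 74.2 ± 6.74, with ERG above ELF1 in 10 of 10. ETS2, ELF4, GABPA and ETV6 lay between 30.9 and 54.9 on average and exchanged places in single libraries. ETV2 was at 1.78 ± 1.3, with 0 reads in the 36 h library without vitamin C.

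**Figure D2:**
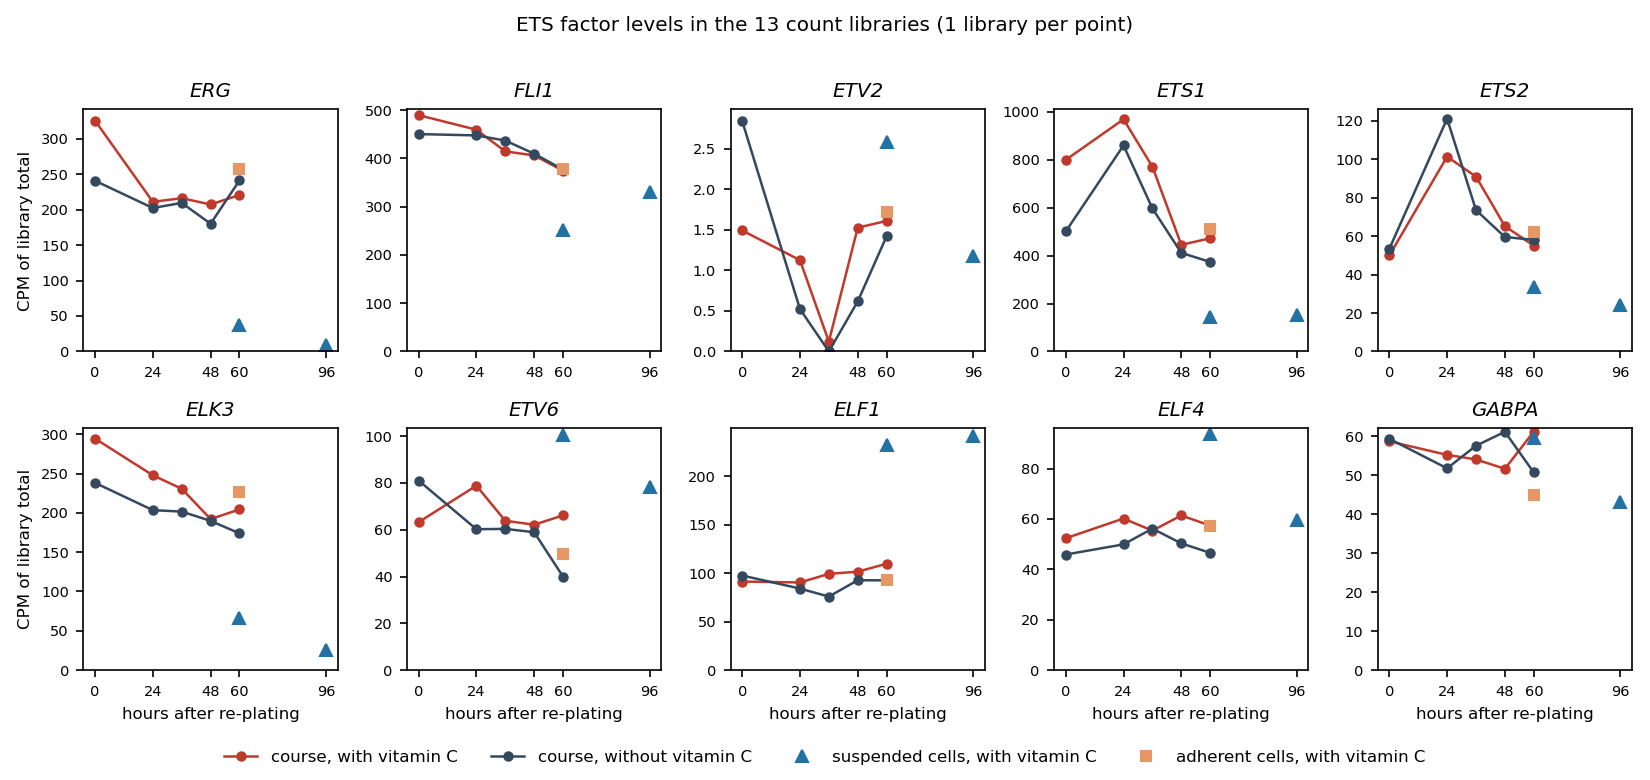
CPM of the library total for each ETS gene against hours after re-plating, 1 library per point, with lines joining the course libraries of each vitamin C condition, triangles for suspended cells and squares for adherent cells. ETS1 and ETS2 peak at 24 h on both lines, and the triangles of ERG, at 37.7 and 8.77 CPM, lie far under every other point of that gene.

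The course with vitamin C against the course without it showed 1 difference among the 10 genes that passed, in ETS1. On TMM-scaled CPM, ETS1 had 789, 977, 790, 441 and 468 CPM at 0, 24, 36, 48 and 60 h with vitamin C, against 498, 864, 610, 407 and 377 CPM at the same hours without it. The library with vitamin C was the higher at each of the 5 times. The log2 difference was 0.33 ± 0.07 (SE), with an adjusted p of 0.0196 by edgeR's quasi-likelihood test. Of 16276 genes tested, 5.87% passed (2.5% higher and 3.37% lower with vitamin C), so 1 of 10 is near the background share. The ETS1 call was lost without the 36 h library with vitamin C (adjusted p = 0.0889) or without the 36 h library lacking it (adjusted p = 0.0949).

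The other 9 genes did not pass. ELK3 came nearest, at 291, 250, 236, 190 and 203 CPM with vitamin C against 237, 204, 206, 188 and 175 CPM without it, a difference of 0.20 ± 0.06 with an edgeR adjusted p of 0.0933. The ELK3 library with vitamin C was also the higher at each of the 5 times. ERG was at 321 CPM at 0 h with vitamin C against 239 CPM without it, but at 60 h it was at 219 CPM with vitamin C against 243 CPM without it, and its overall difference was 0.12 ± 0.08. That difference was 0.04 without the 0 h library of either condition, and 0.18 without the 60 h library of either. FLI1 differed by 0.01 ± 0.06, ETS2 by -0.00 ± 0.09 and GABPA by -0.00 ± 0.09. ETV2, on 0 to 22 reads a library, differed by 0.31 ± 0.52. At an unadjusted p under 0.05 there were 3 of the 10 (18.5% of all genes).

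Other cell markers moved with the condition. Summed over 10 blood markers the course had 1502 to 1918 CPM with vitamin C against 699 to 1116 CPM without it. Most of the sum is CD34, a gene that endothelium also expresses (958 to 1625 CPM with vitamin C against 459 to 921 CPM without it), and 8 of the 9 blood markers tested rose. The course had over 6 epithelial markers 485 to 524 CPM with vitamin C against 1057 to 1171 CPM without it, most of it KRT8 and KRT18, whereas EPCAM (0.75 ± 0.43) and CDH1 (0.15 ± 0.53) did not pass. The 8 mesenchymal markers had 400 to 893 CPM with vitamin C and 709 to 1441 CPM without it, which overlap, and 5 of the 7 tested fell. Of all genes tested, 2.5% were called higher and 3.37% lower with vitamin C. The 10 endothelial markers overlapped in their sums, at 7597 to 9564 CPM with vitamin C and 6799 to 8904 CPM without it. Of these 10, edgeR called 3 higher and 0 lower, and DESeq2 called 2. The 3 were TIE1 (0.27 ± 0.07), EMCN (0.56 ± 0.12) and CLDN5 (1.11 ± 0.25). The part of these markers in the ETS1 difference was not tested. In bulk RNA, fewer cells of a type and less RNA per cell cannot be told apart.

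Among the other 18 ETS genes, 9 had enough reads to be tested and 1 passed. SPI1, which encodes the myeloid factor PU.1, rose in cells with vitamin C by 3.25 ± 0.27 on the log2 scale (edgeR adjusted p = 3.8e-05), with 6.005, 6.17, 11.3, 14.7 and 33.4 CPM from 0 to 60 h with vitamin C against 1.03, 0.787, 0.349, 1.68 and 3.78 CPM without it. SPI1 is also 1 of the 10 blood markers. ETV1, ETV4 and ETV5, close relatives of one another that respond to FGF signalling, did not pass, at -0.40 ± 0.11, -0.27 ± 0.08 and -0.18 ± 0.07. The median difference was -0.09 over the 9 genes, 0.16 over the 10 chosen ETS genes and 0.01 over all genes tested.

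Of the 5 heptad partners 2 rose with vitamin C (2.5% of all genes did), both of them components of the SCL complex. LMO2 differed by 0.75 ± 0.09 (edgeR adjusted p = 0.000420) and TAL1 by 0.51 ± 0.09 (adjusted p = 0.00393). RUNX1, the factor required for blood to form from endothelium, was at 0.33 ± 0.10 (adjusted p = 0.0783) and LYL1 at 0.19 ± 0.13. All 5 differences were positive, with a median of 0.33 against 0.01 over all genes.

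Of 24 endothelial target genes of ERG and FLI1, 6 rose and 2 fell with vitamin C by edgeR, beside 2.5% higher and 3.37% lower of all genes. DESeq2 called 6 of the 24 in either direction. The 2 that fell were FLT1 (-0.23 ± 0.06) and ANGPT2 (-0.98 ± 0.23). ENG, a TGF-beta co-receptor, rose by 0.62 ± 0.09, SOX17, an arterial and haemogenic factor, by 0.61 ± 0.10, APLNR, the apelin receptor, by 0.75 ± 0.14, and CCND1, a D-type cyclin, by 0.26 ± 0.06 (edgeR adjusted p between 0.00187 and 0.0192). Of 12 megakaryocyte target genes of FLI1, 9 were tested and 3 rose by edgeR, beside the same 2.5% of all genes, while DESeq2 called 2. ITGA2B, the platelet integrin also known as CD41, rose by 1.84 ± 0.32, and GP1BA, a platelet glycoprotein, by 1.55 ± 0.28. SELP, the platelet and endothelial P-selectin, rose by 0.62 ± 0.16. GP9 was at 1.56 ± 0.69, which did not pass (edgeR adjusted p = 0.247). The medians were 0.09 over the 24 genes and 0.72 over the 9.

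Targets tied to ELK3 and to MAPK signalling were mixed. Of 12 early response genes of ternary complex factors, 10 were tested and 0 passed by edgeR, with 2 at an unadjusted p under 0.05 and 0 by DESeq2. CYR61 was at -0.50 ± 0.16 and JUNB at -0.40 ± 0.13, with edgeR adjusted p of 0.101 and 0.103, while MCL1 and IER2 were at -0.16 ± 0.09 and -0.14 ± 0.09. Of 9 feedback genes of the MAPK pathway, 1 rose and 2 fell, beside 5.87% of all genes called in either direction. SPRY4 rose by 0.39 ± 0.09, whereas DUSP6, an ERK phosphatase, fell by 0.63 ± 0.09 and SPRED3 fell by 0.85 ± 0.20 on the log2 scale. DUSP4 was at -0.37 ± 0.12 (edgeR adjusted p = 0.106). Of 15 GABP partners and mitochondrial targets, 0 passed by edgeR, 1 (TIMM44, 0.21 ± 0.08) had an unadjusted p under 0.05 and 0 passed by DESeq2. COX7C was at -0.14 ± 0.07, GABPB2 at 0.40 ± 0.26 and MRPL12 at 0.25 ± 0.17.

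Slopes against hours, fitted as 1 line per condition and scaled to 60 h, gave no difference between the conditions that passed the test. A line describes poorly genes that peak at 24 h, such as ETS1 and ETS2. Their slope differences were -0.31 ± 0.73 and 0.24 ± 0.93, standard errors with which sizable differences could be missed. By edgeR 0 of the 10 genes passed for the slope difference, against 0% of all 16276 genes, and 1 of the 10 and 473 of all genes (2.91%) had an unadjusted p under 0.05. DESeq2 called 0 of the 10 and 7 of all genes. The 1 gene was ETV6, at 62.4 CPM with vitamin C against 80.6 CPM without it at 0 h and at 65.6 CPM with vitamin C against 40.3 CPM without it at 60 h, a slope difference of 0.78 ± 0.34. It was 0.38 without the 0 h library with vitamin C and 0.52 without the 60 h library lacking it. Of the genes on the 7 related lists, edgeR and DESeq2 both called 0 for the slope difference, with 3 endothelial targets, 3 megakaryocyte targets and 1 heptad partner at an unadjusted p under 0.05 in edgeR. Limma called 0 of them in sorted cells, with 1 other ETS gene at an unadjusted p under 0.05.

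ETS2, ETS1 and ERG changed within 24 h of re-plating. ETS2 had 102 and 122 CPM at 24 h, with and without vitamin C, against 49.3 and 53.1 CPM at 0 h, a log2 difference of 1.13 ± 0.14 (edgeR adjusted p = 8.90e-05). ETS1 had 977 and 864 CPM at 24 h against 789 and 498 CPM at 0 h, a difference of 0.54 ± 0.12 (adjusted p = 0.00344). ERG had 213 and 203 CPM at 24 h against 321 and 239 CPM at 0 h, a difference of -0.42 ± 0.13 (adjusted p = 0.0205). The libraries of 24 h and 0 h did not overlap for these 3 genes and for ETV2 and GABPA, or 5 of 10, against 63.8% of all genes. The genes called were thus 3 of 10, 2 higher and 1 lower, against 33.3% of all genes (16.2% higher and 17.2% lower), so their share is that of the background. At an unadjusted p under 0.05 the shares were 3 of 10 and 43.1%. Each time has 1 library of either vitamin C condition, and the pair stands in for replicates of the time.

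Within both divergent pairs the neighbours differed. ETS2 rose while ERG fell. ETS1 rose while FLI1 had 463 and 450 CPM at 24 h against 483 and 448 CPM at 0 h. The difference between neighbours was not itself tested. The ETS2 call stood without any 1 library. The ETS1 call was lost without the 24 h library lacking vitamin C (adjusted p = 0.0519). The ERG call was lost without that library (adjusted p = 0.0928), without the 24 h library with vitamin C (adjusted p = 0.141) and without the 0 h library with vitamin C, which also lowered its size to -0.21 (adjusted p = 0.222).

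From 24 h to 60 h ETS1 and ETS2 fell, and FLI1 fell by a smaller amount. ETS1 had 468 and 377 CPM at 60 h, with and without vitamin C, against 977 and 864 CPM at 24 h, and so fell by 1.13 ± 0.12 on the log2 scale (edgeR adjusted p = 5.25e-05). ETS2 had 54.5 and 58.6 CPM at 60 h against 102 and 122 CPM at 24 h, and fell by 0.99 ± 0.14 (adjusted p = 0.000470). FLI1 had 371 and 380 CPM at 60 h against 463 and 450 CPM at 24 h, and fell by 0.28 ± 0.09 (adjusted p = 0.0348). At 60 h ETS1 stood below, and ETS2 close to, its 0 h levels. The genes called were 3 of 10, 0 higher and 3 lower, against 23.5% of all genes (12.1% higher and 11.4% lower). The libraries of 60 h and 24 h did not overlap for 7 of 10, against 58.8% of all genes. At an unadjusted p under 0.05 there were 4 of the 10, and 35.7% of all genes. The FLI1 call was lost when any library of 24 h, 36 h or 60 h was left out (6 of 10 such fits, adjusted p up to 0.188). ETV6, at -0.41 ± 0.20 with all libraries, passed without the 0 h library with vitamin C (adjusted p = 0.0470), without that lacking it (adjusted p = 0.0436) or without the 60 h library with vitamin C (-0.78, adjusted p = 0.0250), and with no filter on low counts. Both intervals use the same 24 h libraries, so a gene that is high at 24 h counts in each.

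Cell markers were also called over the same intervals, not all of them beyond the share of all genes. At 24 h against 0 h, 6 of 10 endothelial markers rose and 1 fell, 1 of 9 blood markers rose and 2 fell, 1 of 7 mesenchymal markers rose and 3 fell, 1 of 5 epithelial markers rose and 2 fell, and 3 of 3 markers of pluripotent cells fell. Of all genes 33.3% were called in that interval (16.2% higher and 17.2% lower), a share that the blood markers did not exceed. At 60 h against 24 h, 6 of 6 erythroid markers rose, with a median log2 difference of 7.17, 6 of 9 blood markers rose and 1 fell, 4 of 10 endothelial markers rose and 3 fell, and 3 of 7 mesenchymal markers rose and 1 fell. Beside them stood 23.5% of all genes called, 12.1% higher and 11.4% lower. The part of these markers in the ETS differences was not tested.

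**Figure D3:**
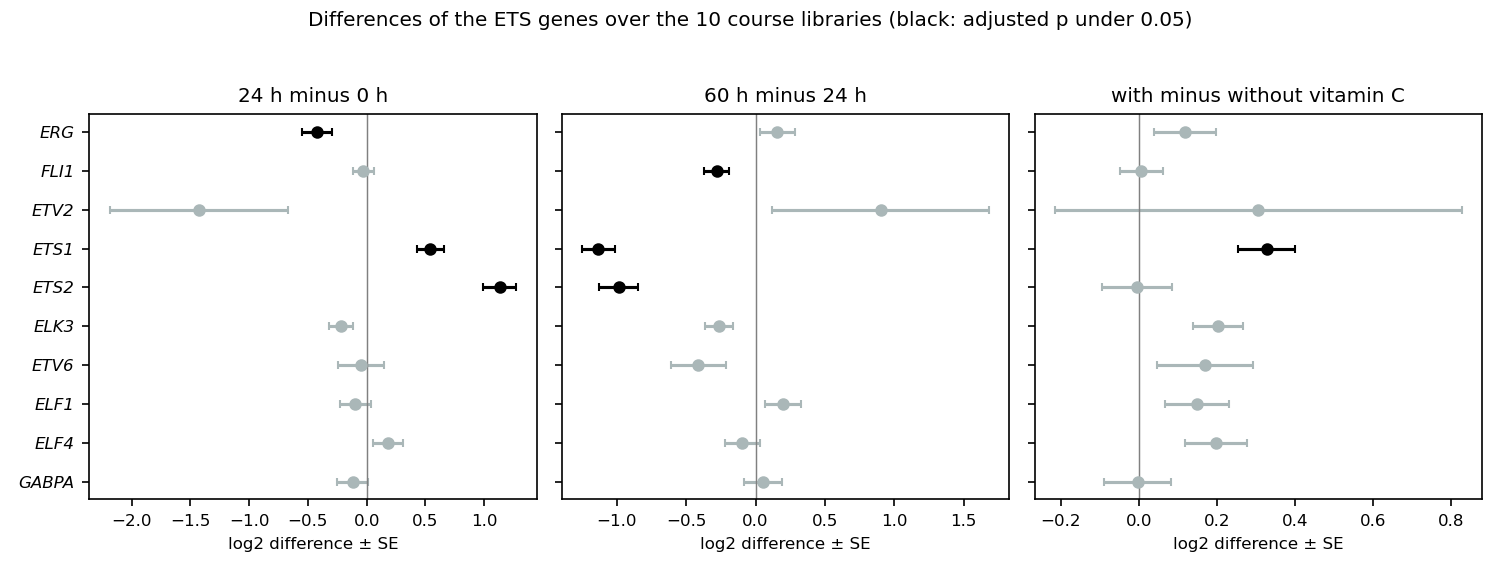
Log2 differences with their SE for the 10 ETS genes in the course: with over without vitamin C, 24 h over 0 h, and 60 h over 24 h. Black marks adjusted p under 0.05, reached by ETS1 for vitamin C (0.33), by ETS2, ETS1 and ERG at 24 h (1.13, 0.54 and -0.42), and by ETS1, ETS2 and FLI1 at 60 h (-1.13, -0.99 and -0.28).

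The lists are to be read against 33.3% of all genes called at 24 h against 0 h and 23.5% at 60 h against 24 h. Of the 9 other ETS genes tested, 1 rose and 2 fell at 24 h against 0 h, the fallers being ETV1 (-1.16 ± 0.18) and ETV5 (-0.38 ± 0.12), and 2 rose and 3 fell at 60 h against 24 h, where SPI1 rose by 2.40 ± 0.41. The first count is the background share. Of the 9 MAPK feedback genes, 5 rose and 1 fell at 24 h against 0 h, with DUSP4 rising by 2.57 ± 0.21 and SPRY4 by 1.184 ± 0.14, and 0 rose and 5 fell at 60 h against 24 h, with SPRY4 at -1.33 ± 0.14. Of 10 early response genes, 0 rose and 5 fell at 24 h against 0 h. JUNB (-0.73 ± 0.21) fell least of these, and FOSB (-3.94 ± 0.36) and FOS (-3.63 ± 0.25) fell most. At 60 h against 24 h, 2 rose, FOS (3.01 ± 0.25) and FOSB (2.91 ± 0.35), and 5 fell, among them CYR61 (-1.72 ± 0.26). The medians of the feedback list were 1.02 and -0.62, and those of the early response list -0.77 and -0.42, against -0.02 and 0.02 over all genes.

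Of the 24 endothelial targets, 14 rose and 5 fell at 24 h against 0 h, while ERG fell. CCND1 rose by 2.04 ± 0.09 and ENG by 0.51 ± 0.14, whereas APLNR fell by 1.67 ± 0.23 and SOX17 fell by 0.76 ± 0.16. At 60 h against 24 h, 8 rose and 7 fell, with CCND1 at -1.88 ± 0.09. The 9 megakaryocyte targets had 1 higher and 3 lower at 24 h against 0 h and 4 higher and 0 lower at 60 h against 24 h, where ITGA2B rose by 2.43 ± 0.49. Of the 5 heptad partners, 0 rose and 2 fell at 24 h against 0 h, and 2 rose and 2 fell at 60 h against 24 h. LYL1 was in both counts, at -0.84 ± 0.21 at 24 h and 0.78 ± 0.21 at 60 h. Of the 15 GABP partners and targets, 5 rose and 1 fell at 24 h against 0 h, a share near the 33.3% of all genes, among them TIMM44 (0.50 ± 0.13) and MRPL12 (0.89 ± 0.27) higher and COX7C (-0.42 ± 0.11) lower. At 60 h against 24 h 1 rose, COX7C (0.64 ± 0.11), and 1 fell, under the 23.5% of all genes, while GABPA itself did not pass in either interval (-0.12 ± 0.14 and 0.05 ± 0.14).

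Suspended blood cells held the same 10 ETS genes as adherent cells of the same hour, at different levels. ERG was at 37.7 CPM in the suspended cells against 257 CPM in the adherent cells, 6.83 times lower (95% counting interval 6.004 to 7.797). ETS1 was at 144 CPM in the suspended cells against 511 CPM in the adherent cells, a ratio of 0.281 (0.262 to 0.301). ELK3 was at 66.3 CPM against 227 CPM, a ratio of 0.292. ELF1, in contrast, was at 232 CPM in the suspended cells against 92.5 CPM in the adherent cells, a ratio of 2.51 (2.30 to 2.74), and ETV6 at 100.5 CPM against 49.6 CPM, a ratio of 2.02 (1.79 to 2.29). Each group is 1 library, so there is no replicate check, and the exact Poisson intervals cover counting error only.

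The other members differed by less than 2-fold. FLI1 was at 251 CPM in the suspended cells against 379 CPM in the adherent cells, a ratio of 0.663 (0.625 to 0.703), although it belongs to the same subfamily as ERG. ETS2 had a ratio of 0.545, ELF4 of 1.64 and GABPA of 1.33. ETV2 was at 2.59 CPM against 1.72 CPM, a ratio of 1.5 whose interval (0.705 to 3.26) spans equality. Past 2-fold were 2 of 10 higher and 3 lower, against 30% of the 16562 genes with at least 1 CPM in either library (14.3% higher and 15.7% lower). With TMM scaling or with 5 CPM added to both values in place of 0.5 CPM, ETV6 came to less than 2-fold and 4 remained past it. TMM scaling shifted the median log2 ratio of all genes to 0.01 in place of 0.13, so that every ratio above is to be read against a slightly raised centre.

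**Figure D4:**
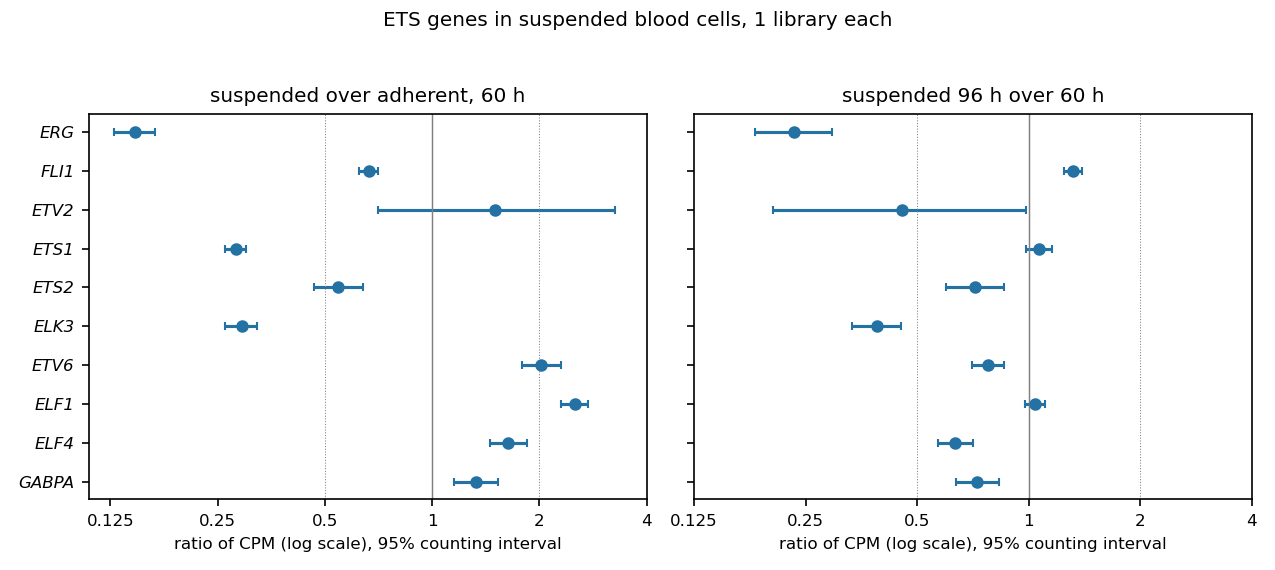
Ratio of CPM with its 95% counting interval for the 10 ETS genes on a log axis, for suspended over adherent cells at 60 h (left) and for 96 h over 60 h in suspended cells (right), with dotted lines at 2-fold. ERG is farthest to the left in both (0.146 and 0.233), ELF1 and ETV6 lie past 2-fold on the right at 60 h (2.51 and 2.02), and ELK3 lies under 0.5 in both (0.292 and 0.389).

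Between 60 and 96 h the suspended cells held still less ERG. ERG was at 8.77 CPM at 96 h against 37.7 CPM at 60 h, a ratio of 0.233 (0.183 to 0.295), and ELK3 was at 25.8 CPM at 96 h against 66.3 CPM at 60 h, a ratio of 0.389. FLI1 was at 331 CPM at 96 h against 251 CPM at 60 h, a ratio of 1.32 (1.24 to 1.39). ELF1 (ratio 1.04) and ETS1 (ratio 1.07) were within 10% of their 60 h levels, with the interval of each spanning equality. ETS2, ETV6, ELF4 and GABPA had ratios of 0.634 to 0.778, and ETV2, on few reads, had a ratio of 0.454 (1.176 CPM at 96 h against 2.59 CPM at 60 h). Past 2-fold were 0 of 10 higher and 2 lower after adding 0.5 CPM, against 20.5% of 16303 genes (7.15% higher and 13.4% lower). TMM scaling put the median of all genes at -0.03 in place of -0.19 on the log2 scale.

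Markers of other cells differed across these libraries too. The 10 endothelial markers summed to 1935 CPM in suspended cells at 60 h and 884 CPM at 96 h against 9675 CPM in adherent cells, and 6 erythroid genes to 863 CPM and 10332 CPM against 9.61 CPM. PECAM1 held 559 of the 884 CPM. Mesenchymal markers were low in suspended cells, at 207 and 46.6 CPM summed over 8 genes, with DCN at 0 in all 3 libraries, against 580 CPM in adherent cells. Markers of epithelium summed to 333 and 152 CPM against 481 CPM, most of it KRT8 and KRT18. KRT19, at 32.9 and 17.4 CPM against 11.2 CPM, and EPCAM, at 4.46 and 28.5 CPM against 1.72 CPM, went the other way. At 60 h 2 of the 4 with at least 1 CPM were past 2-fold higher and 0 lower, beside 14.3% and 15.7% of all genes. Of the markers of pluripotent cells, LIN28A was at 425 and 256 CPM in suspended cells at 60 and 96 h against 91.7 CPM in adherent cells and DPPA4 at 35.5 and 57.9 CPM against 40.2 CPM, while NANOG was at 0 in each. The part of these markers in the ETS ratios was not tested.

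Within a library, ratios between genes are free of its scaling. Per length, FLI1 over ERG was 6.19 in suspended cells at 60 h and 35.0 at 96 h, against 1.37 in adherent cells, 1.40 to 2.11 over the course and 1.54 to 2.55 in sorted cells. ELF1 over ERG was 10.8 at 60 h and 48.2 at 96 h, against 0.630 in adherent cells. ETS1 over FLI1, neighbours on chromosome 11, was 0.654 at 60 h and 0.529 at 96 h, against 1.54 in adherent cells and 1.13 to 2.41 over the course. The sorted endothelial libraries, at 0.518 to 0.953, reached as low as the suspended cells, but on TPM whose making is not given. Their ratios, that of FLI1 over ERG included, are therefore not on the same measure as those from counts over exonic length. The 0 h endothelium, from counts, had ETS1 over FLI1 at 1.87 with and 1.27 without vitamin C. ELF1 was thus the most abundant of the 10 genes in both suspended libraries, while ERG ranked ninth at 60 h and at 96 h.

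As shares of the summed per-length level of all 28 ETS genes, ERG, FLI1, ETS1 and ELK3 together made up 21.7% in suspended cells at 60 h and 26.6% at 96 h, against 55.9% in adherent cells and 50.6 to 61.8% over the course. ELF1, ELF4 and ETV6 together made up 27.8% and 31.2%, against 11.6% in adherent cells and 9.21 to 13.5% over the course. SPI1 alone made up 21.6% and 19.8%, against 1.66% in adherent cells. FLI1 held 9.54% at 60 h and 15.7% at 96 h, against 12.9% in adherent cells. ERG held 1.54% and 0.449% against 9.44%, ETS1 6.23% and 8.31% against 19.9%, and ELK3 4.42% and 2.15% against 13.6%. At 60 h all 4 shares were below those in adherent cells, and at 96 h those of ERG, ETS1 and ELK3 were.

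**Figure D5:**
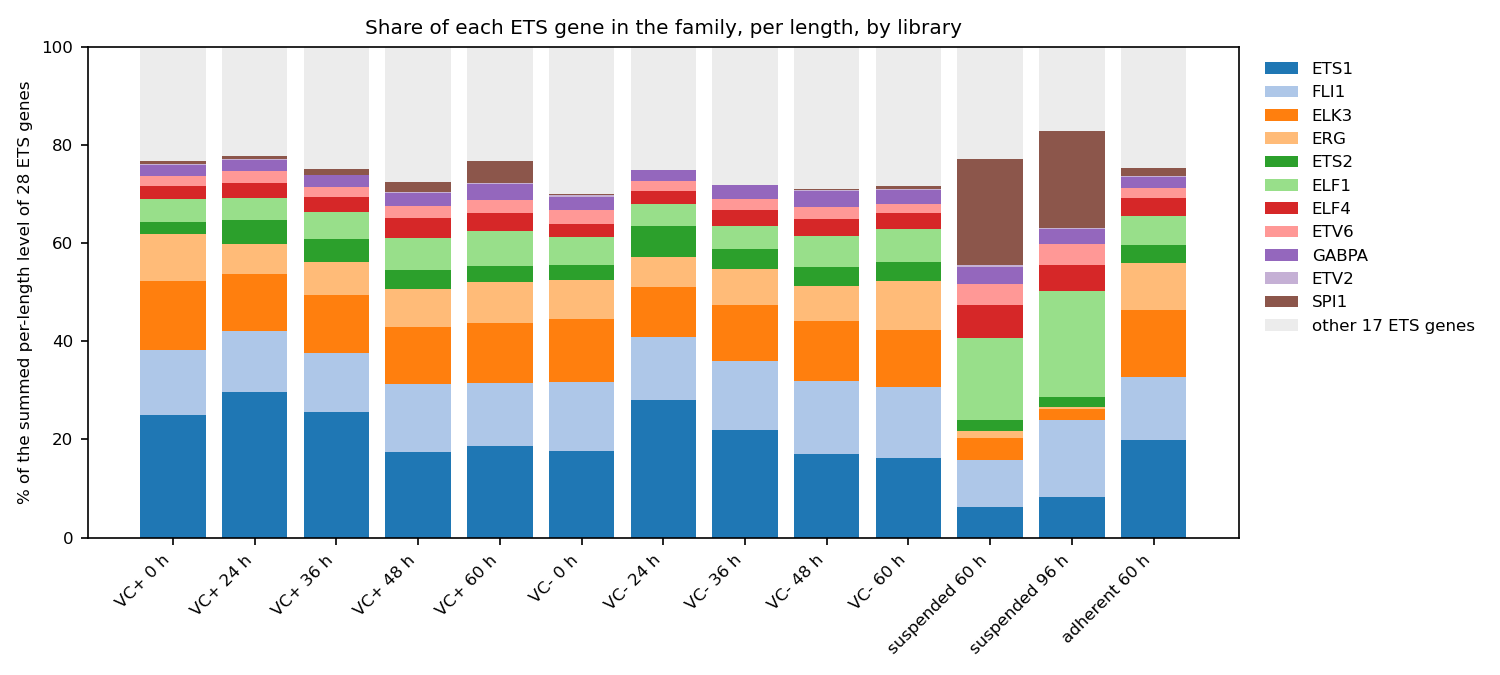
Share (%) of each ETS gene in the summed per-length level of the 28 genes of the family, 1 stacked bar per library. The ERG, FLI1, ETS1 and ELK3 segments reach 50.6 to 61.8% in course libraries and 55.9% in adherent cells, but 21.7% and 26.6% in suspended cells, where SPI1 takes 21.6% and 19.8%.

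Each of the 5 heptad partners was past 2-fold higher in the suspended cells of 60 h than in the adherent ones. Counts in this comparison stand beside 14.3% of all genes higher and 15.7% lower, and those at 96 h against 60 h beside 7.15% higher and 13.4% lower. RUNX1 had a ratio of 4.53, TAL1 of 4.23, LYL1 of 4.13 and LMO2 of 2.39. ERG and FLI1, the ETS part of the heptad, had ratios of 0.146 and 0.663. Of the 24 endothelial targets, 1 was past 2-fold higher and 21 lower, with ENG at 0.246 and SOX17 at 0.171, and at 96 h against 60 h 1 was higher and 15 lower. Of the megakaryocyte targets 8 were past 2-fold higher and 0 lower, with ITGA2B at 26.1 and GP1BA at 7.76, and at 96 h against 60 h 9 were higher and 0 lower, with SELP at 8.79. Median log2 ratios at 60 h were 2.08 for the partners, -2.35 for the endothelial and 2.86 for the megakaryocyte targets, against 0.13 over all genes. At 96 h against 60 h 0 partners were past 2-fold higher and 1 lower.

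Most early response genes and 5 of 9 feedback genes were past 2-fold lower in suspended cells, beside 15.7% of all genes. Of 11 early response genes with at least 1 CPM, 0 were past 2-fold higher and 8 lower, with CYR61 at 17.1 CPM in suspended against 169 CPM in adherent cells. The adherent library was itself above the unseparated 60 h culture with vitamin C for CYR61 (77.7 CPM there) and JUNB (114 against 61.2 CPM). JUNB in suspended cells, at 70.7 CPM, was above that culture, and CYR61 under it. These ratios thus describe a contrast with the adherent library and not a fall in suspended cells alone. Of the 9 feedback genes, 0 were higher and 5 lower, with DUSP6 at 64.8 CPM in suspended against 259 CPM in adherent cells. At 96 h against 60 h, 1 early response gene was past 2-fold higher and 2 were lower, and 0 feedback genes were higher and 6 lower, beside 7.15% and 13.4% of all genes. The 15 GABP partners and mitochondrial targets held 0 genes past 2-fold in either comparison, beside 30% of all genes at 60 h and 20.5% at 96 h against 60 h. All 15 ratios were nonetheless above 1 at 60 h, with a median log2 ratio of 0.65 against 0.13 over all genes, beside the GABPA ratio of 1.33.

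Over the 13 count libraries 6 of the 10 genes varied by an SD of at least 0.5 in log2(CPM + 1). For these the 3 genes of most like profile were found by the root mean square difference of centred log2 values among 12016 genes. For ERG they were KLHL4 (0.157), AL031658.1 (0.182) and KANK3 (0.205), against a median of 1.37 over all genes searched. For ETS1 they were LRRC8C (0.1252), BCL6B (0.151) and RCSD1 (0.264). For ELK3 they were AUTS2 (0.130), MAML2 (0.144) and KIRREL1 (0.149). For ELF1 they were RHOT1 (0.101), CD164 (0.127) and FTH1 (0.132), and for ETS2 ADAM15 (0.157), CDR2L (0.187) and KIF5B (0.200). ETV2, on few reads, was nearest to CARF (0.258), GOLGA8B (0.275) and GOLGA8A (0.302). The suspended libraries hold most of the variation of ERG, ETS1, ELK3 and ELF1, so likeness rests largely on them: KLHL4 had 12.8 and 2.17 CPM in suspended cells at 60 and 96 h, against 69.6 CPM in adherent cells. FLI1, ETV6, ELF4 and GABPA varied by less than 0.5 and were not searched.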

How the data were processed

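Per the labels' protocols, 1 µg of total RNA, isolated with Trizol, went into each Illumina TruSeq library. Per the submitters' processing notes, the build was GRCh38 (hg38) and the tools were DESeq 1.18.1, HTSeq 0.6.0, HISAT2 2.0.4 and SAMtools 1.3.1, with no role or order given. The 13 tables of the course, adherent and suspended cells were deposited as raw counts per gene. The 4 tables of sorted cells were deposited by the authors as values read here as TPM, since they sum to 995020 to 996531, and how they were made is not given in the sources used here.

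The quasi-likelihood test of edgeR 4.0.16 (R 4.3.3), with TMM scaling and filterByExpr, was run on the counts of the 10 course libraries. The vitamin C effect was fitted with time as a factor, intervals with vitamin C and time as factors, and slopes as lines in hours. TPM were tested with limma 3.58.1 on log2(TPM + 1), which understates changes of low genes, for genes at 1 TPM or more in at least 2 libraries. The design had assumed counts there, and this was its fallback. P-values are two-sided and Benjamini-Hochberg adjusted over all genes tested, with a threshold of 0.05. Single libraries were compared by CPM ratio with an exact Poisson interval at 95%. Log2 ratios, and the count of genes past 2-fold, used CPM + 0.5, among genes with at least 1 CPM in either library. Reads carry no molecular identifiers, so intervals cover counting error only. Per-length levels used GENCODE 29 exons, and sequences came from RefSeq.

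All 10 ETS genes are described, together with counts for 7 related lists, and at most 4 genes a list, those of smallest p for vitamin C, are named. FOS, FOSB, FLT1, ANGPT2 and ETV3 were added outside that rule. The most like genes had a mean of at least 5 CPM. The 10 genes and the lists were chosen with earlier results of these data known. Samples were grouped by title. Alternatives were DESeq2 1.42.0 and its size factors, other filters, pseudocounts of 0.1 and 5, quantile normalization, leaving out libraries, the descriptions' groups, a replicate block, time ranks and other scalings of ratios. The tests were tried on simulated data.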

Additional observations from a re-analysis of the deposited data

How the results depend on the processing

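Calls rest on few libraries, so values near 0 change sign easily. DESeq2 size factors, DESeq2, time ranks, quantile normalization and other pseudocounts left the number of ETS genes called as reported. The replicate numbers of the sorted libraries gave a correlation of deviations of 0.565 over 14421 genes on 2 pairs, which is too few to take them as pairs, and with a replicate block limma called 0 of the 10 ETS genes and 0 genes in all. For the slope difference DESeq2 called 7 genes, and 1 was called without the 0 h pair, where ETV2 was at -1.79 and ETS1 at 0.0922. With no filter on low counts 1591 genes were called for vitamin C, and FLI1 at 24 h against 0 h was at 0.0072. Without the 0 h pair the vitamin C differences were -0.0187 for FLI1, 0.0216 for ETS2 and 0.0041 for GABPA. With the descriptions' groups 156 genes were called in sorted cells, with ETS1 at -0.91, ELK3 at -0.22, ETV6 at 1.04, ELF1 at 0.49, ELF4 at 0.75 and GABPA at 0.11. The causes of these changes were not tested.

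Leaving out each library in turn, the vitamin C test over the course called 0 to 1 ETS genes and 505 to 1209 genes, with ERG at 0.0366 to 0.182, FLI1 at -0.0224 to 0.0288, ETS2 at -0.0891 to 0.0628 and GABPA at -0.0692 to 0.0572. At 24 h against 0 h, 1 to 3 ETS genes and 2961 to 5492 genes were called, with FLI1 at -0.0862 to 0.0452, ETV6 at -0.363 to 0.313 and ELF1 at -0.242 to 0.0751. At 60 h against 24 h, 1734 to 4541 genes were called, with ERG at -0.0223 to 0.312 and GABPA at -0.112 to 0.205. Slope differences ranged over -0.842 to 0.0985 for ERG, -0.275 to 0.0394 for FLI1, -3.40 to 4.08 for ETV2, -1.28 to 1.06 for ETS1, -1.36 to 1.74 for ETS2, -0.0691 to 0.458 for ELF1, -0.151 to 0.39 for ELF4, -0.117 to 0.231 for GABPA and 0.379 to 0.899 for ETV6. In sorted cells 0 to 1 genes were called, with ERG at -0.0488 to 0.112, FLI1 at -0.405 to 0.160, ETV2 at -0.775 to 1.2, ETS1 at -0.489 to 0.622, ELK3 at -0.0287 to 0.215, ETV6 at -1.17 to 0.177 and ELF4 at -1.03 to 0.0724. Of the ratios between single libraries, ETV6 in suspended over adherent cells came under 2-fold with TMM scaling or 5 CPM added.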

Other observations

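ETV1, ETV4 and ETV5, which respond to FGF signalling, were low in the latest suspended cells, though not alone among ETS genes. Of the other ETS genes, 9 had at least 1 CPM at 96 or 60 h. Past 2-fold at 96 h against 60 h were 0 of the 9 higher and 4 lower, beside 7.15% and 13.4% of all genes. ETV3 was also among the lower ones, at 16.0 CPM at 96 h against 33.3 CPM at 60 h. ETV4 was at 2.44 CPM in suspended cells at 96 h, against 41.1 CPM in suspended cells at 60 h and 71.7 CPM in adherent cells. ETV5 was at 3.53 CPM at 96 h, against 23.1 CPM at 60 h and 59.9 CPM in adherent cells, and ETV1 at 0.633 CPM at 96 h, against 4.60 CPM at 60 h and 23.2 CPM in adherent cells. Of the MAPK feedback genes, SPRY4 was at 0.362 CPM at 96 h, against 20.0 CPM at 60 h and 190 CPM in adherent cells. Each value is from 1 library, with no replicate check.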
